A study of Mus musculus with 18 samples.

Results

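The S100 genes were followed as a family in microglia and macrophages of the injured mouse spinal cord. The family was taken by name as S100a1, S100a4, S100a6, S100a8, S100a9, S100a10, S100a11 and S100a13, which are 8 of the 53465 genes of the count table. S100a8 and S100a9, the pair that neutrophils hold in large amounts, were described apart from the 6 other members. All 8 passed edgeR's filter on low counts in every comparison, so that no member was lost from a test.

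Both cell types were sorted from the same cords of 9 adult female C57BL/6J mice, which gave 18 libraries in 6 groups of 3. A contusion was made at T11, and 48 h later PBS (mice 1, 2 and 3), recombinant IL-13 (mice 5, 6 and 7) or recombinant IL-4 (mice 8, 9 and 10) was injected into the cord. The cells were collected 24 h after the injection and sorted on CD45, CD11b and F4/80. CD45low cells were taken as microglia and CD45high cells as infiltrating macrophages, a gate that leaves out F4/80- granulocytes. Every group, the PBS controls included, therefore carried the injury and an injection, and there was no uninjured group. The 2 cytokines and PBS were given to different mice.

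S100 proteins are small calcium-binding proteins that usually work as dimers and exist only in vertebrates. Inside the cell they bind partner proteins when calcium rises, and some are also released and act on receptors of immune cells. Within the family, S100a4 binds non-muscle myosin and is found in motile cells, and S100a10 forms a complex with annexin A2 at the plasma membrane. S100a8 and S100a9 form calprotectin, which binds metal ions and can signal through Tlr4.

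All 8 members lie on chromosome 3 of GRCm38, between 90511034 and 93564643. S100a1 (ENSMUSG00000044080.9, 90511034 to 90514392, minus strand) and S100a13 (ENSMUSG00000042312.9, 90514435 to 90524581, plus strand) stand head to head, with 43 bases between their annotated starts. S100a4 (ENSMUSG00000001020.8) runs from 90603771 to 90606045 and S100a6 (ENSMUSG00000001025.8) from 90612882 to 90624181, both on the plus strand. S100a8 (ENSMUSG00000056054.9, 90668978 to 90670035, plus strand) and S100a9 (ENSMUSG00000056071.12, 90692632 to 90695721, minus strand) follow. S100a11 (ENSMUSG00000027907.4, 93520488 to 93526287) and S100a10 (ENSMUSG00000041959.14, 93555080 to 93564643) lie apart from the other 6, both on the plus strand. Gm42674 shares 2115 bases with S100a4 on the same strand and held at most 1 count in any library. The pseudogene S100a11-ps held 0 counts in every library.

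Promoters are given as RefSeq places them on GRCm38.p6, for S100a4 and for the pair S100a8 and S100a9. S100a4 was the member with an adjusted p under 0.05 with each cytokine in microglia by edgeR's quasi-likelihood test. The pair was high and low in the same macrophage libraries. Each runs 5′ to 3′ on the strand of the gene, from 250 bases before the start to 50 bases after it. Capitals mark matches to the motifs searched.
S100a4, chr3:90603520-90603819, plus strand: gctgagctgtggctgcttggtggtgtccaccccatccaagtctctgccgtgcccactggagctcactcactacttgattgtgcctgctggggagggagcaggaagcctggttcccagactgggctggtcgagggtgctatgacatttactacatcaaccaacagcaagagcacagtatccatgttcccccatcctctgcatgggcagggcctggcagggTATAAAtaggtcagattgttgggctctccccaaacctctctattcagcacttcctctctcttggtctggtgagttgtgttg
S100a8, chr3:90668821-90669120, plus strand: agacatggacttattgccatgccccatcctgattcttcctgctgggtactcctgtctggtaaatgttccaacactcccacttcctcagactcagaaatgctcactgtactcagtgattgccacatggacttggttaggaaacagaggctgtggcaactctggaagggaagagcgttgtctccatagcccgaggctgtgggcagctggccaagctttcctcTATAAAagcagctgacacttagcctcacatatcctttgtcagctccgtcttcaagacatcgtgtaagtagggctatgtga
S100a9, chr3:90695672-90695971, minus strand: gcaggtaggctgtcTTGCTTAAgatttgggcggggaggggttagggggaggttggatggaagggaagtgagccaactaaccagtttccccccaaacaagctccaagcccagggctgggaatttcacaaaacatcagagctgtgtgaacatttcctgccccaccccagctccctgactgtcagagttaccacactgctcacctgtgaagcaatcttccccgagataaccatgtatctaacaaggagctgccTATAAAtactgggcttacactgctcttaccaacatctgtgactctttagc
The motifs searched on both strands were TTCNNNNGAA, the kind of site STAT6 binds, TTCNNNGAA, the kind other STAT proteins bind, TTGCNNAA, a C/EBP type of site, and TATAAA, where TBP can bind. TTCNNNGAA and TTCNNNNGAA read the same on both strands and their matches can overlap. STAT6 is the transcription factor that IL-4 and IL-13 receptors activate. TTCNNNNGAA and TTCNNNGAA were in 0 of the 7 member promoters with a RefSeq sequence, against 6.95% and 8.3% of all 32851 promoters of the same length. TTGCNNAA was in that of S100a9 alone, beginning at base -236, and in 10.8% of all promoters. TATAAA was in 3 of the 7 and in 13.6% of all. It began at base -31 in S100a4 and at base -30 in S100a8, and at base 1, the annotated start itself, in S100a9. S100a10 was not in the promoter table. These matches describe letters in a window and not binding.

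Levels are given as CPM, the counts scaled to library size, after TMM scaling over all 18 libraries, which sets both cell types on 1 scale. The libraries held between 35961305 and 45849829 counts, with a median of 39570356, and between 15193 and 18371 genes were detected. The members had from 207 to 48605 counts in a library. Arg1, Retnla and Chil3, genes that IL-4 and IL-13 induce in myeloid cells, were all 3 higher with each cytokine in each cell type. The defining microglial markers P2ry12 and Tmem119 were at 82.1 to 449.5 and 79.2 to 630.5 CPM in microglia libraries, and at 17.1 to 107.4 and 11.3 to 221.5 CPM in macrophage libraries. The monocyte markers Ccr2 and Ly6c2 were at 154.0 to 545.3 and 32.0 to 258.2 CPM in macrophage libraries, and at 10.1 to 62.5 and 1.4 to 13.3 CPM in microglia libraries. The 10 listed fibroblast and pericyte markers summed to between 254 and 8322 CPM in microglia libraries and to at most 27.4 CPM in macrophage libraries, and the highest sum was that of IL-13 mouse 6. The macrophage library of the same mouse stood apart in S100a8, S100a9 and neutrophil markers, and the changes of S100a8 and S100a9 with IL-13 and the median of the members are also given without it.

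**Figure D1:**
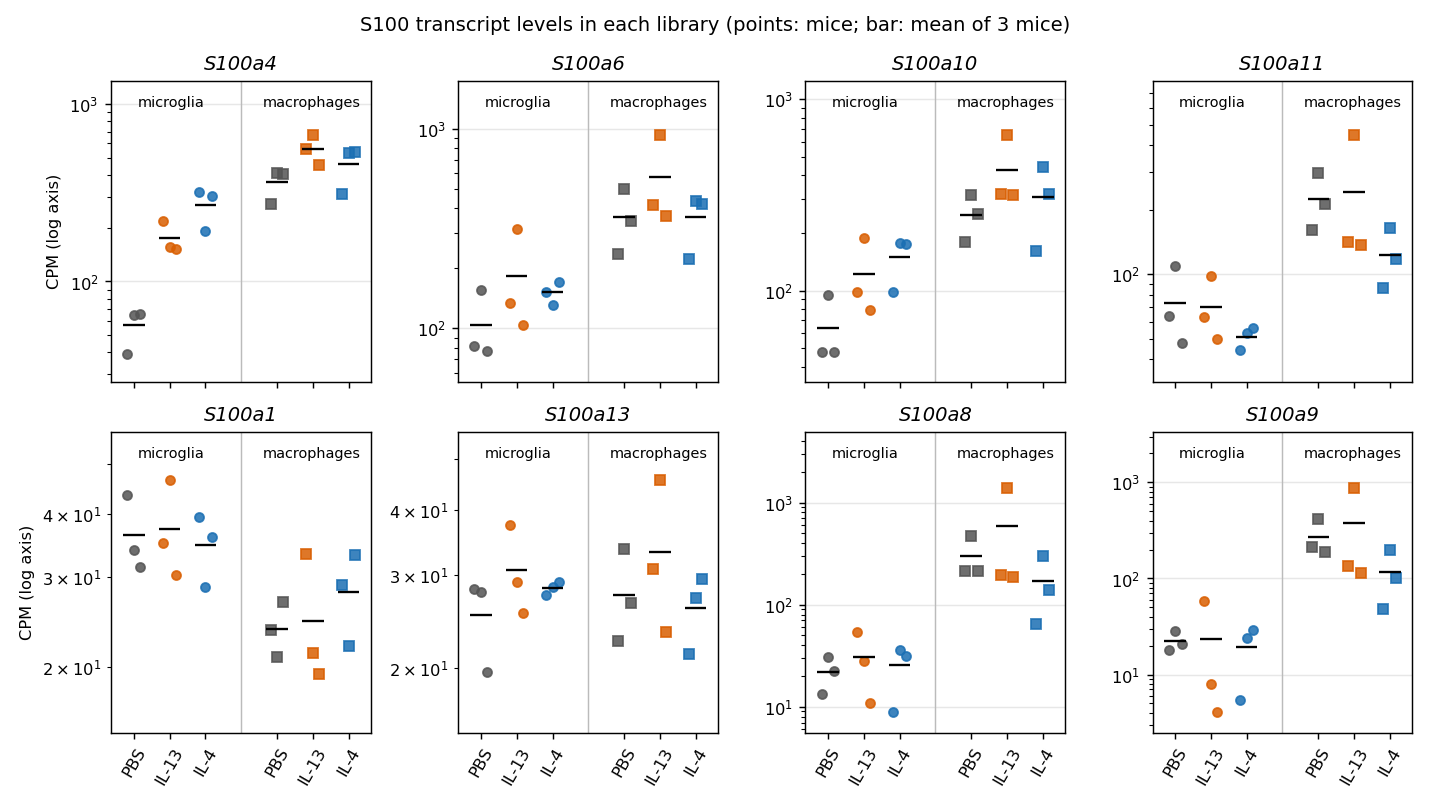
CPM of each member on a log axis in microglia (circles) and macrophages (squares) after PBS, IL-13 or IL-4, with 1 point per mouse and a bar at the mean of 3 mice. In microglia the S100a4 points of PBS lie between 39.2 and 65.9 CPM and those of both cytokines at 151.9 CPM and above, while S100a8 and S100a9 are highest in the macrophages of IL-13 mouse 6.

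Levels of different genes were compared as CPM per kilobase of exon. S100a4 ranked first of the 8 in 5 of the 6 groups. In macrophages after PBS it had 620 ± 130 CPM per kilobase (SD, n = 3), followed by S100a9 with 522 ± 241, S100a11 with 437 ± 136, S100a8 with 433 ± 216, S100a6 with 263 ± 95.8 and S100a10 with 206 ± 56.8. Each of these overlapped its neighbour. S100a13 with 38.6 ± 7.91 and S100a1 with 34.3 ± 4.25 came last, below every value of S100a10. With the longest transcript as the length in place of all exons, the levels in these macrophages were 603 for S100a8, 459.5 for S100a6 and 364 for S100a10. S100a8 then came next after S100a4, and S100a6 came before S100a11.
In microglia after PBS, S100a11 came first with 144 ± 62.2 CPM per kilobase, before S100a4 with 96.7 ± 25.6, S100a6 with 76.4 ± 31.9 and S100a10 with 52.4 ± 22.5. The lower 4 were between 52.3 ± 9.17 for S100a1 and 31.8 ± 12.6 for S100a8, and all neighbours in this order overlapped. With the longest transcript as the length, S100a6 with 133 came before S100a4 with 113 in these microglia. After IL-4, S100a4 reached 464 ± 119 CPM per kilobase in microglia and did not overlap the next member, S100a10, with 124 ± 37.0. After IL-13 it had 301 ± 64.0, above every value of S100a11, which came next with 137 ± 48.5. In macrophages, S100a4 overlapped the next member after IL-13, where S100a8 had 857 ± 1009, and did not after IL-4, where S100a6 had 263 ± 86.0.

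The first question was whether the cytokines changed the members in microglia. S100a4 rose by 4.84-fold with IL-4 and by 3.12-fold with IL-13. No other member had an adjusted p under 0.05 by edgeR's quasi-likelihood test. S100a4 was 39.2, 64.4 and 65.9 CPM in the microglia of the 3 PBS mice, 219.0, 157.0 and 151.9 CPM with IL-13, and 319.1, 191.8 and 302.6 CPM with IL-4. The PBS values lay below all 6 cytokine values, and the ranges of the 2 cytokines overlapped. The log2 fold change of S100a4 against PBS was 2.28 ± 0.28 (SE) with IL-4, with an adjusted p of 0.00496 by edgeR's quasi-likelihood test, and 1.64 ± 0.27 with IL-13, with an adjusted p of 0.0471. Between IL-4 and IL-13 it was 0.64 ± 0.27, with an adjusted p of 0.426 by the same edgeR test.

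Of the 8 members, 1 was called (adjusted p under 0.05) with IL-4, against 2.22% of the 15566 genes tested, and 1 with IL-13, against 0.366%. The call with IL-4 held when any 1 of the 6 mice compared was left out, with adjusted p from 0.00538 to 0.0273 by edgeR's test. The call with IL-13 was lost without any 1 of the 6, with adjusted p from 0.0804 to 0.198, while the log2 fold change stayed between 1.43 and 1.77. No member was called between the cytokines by edgeR's quasi-likelihood test (0 of 8, against 0.0385% of genes) or by DESeq2 (0), and 1 had an unadjusted p under 0.05.

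S100a10, the annexin A2 partner, was 47.6, 94.9 and 47.9 CPM in PBS microglia, 98.5, 189.2 and 79.3 CPM with IL-13 and 98.4, 176.5 and 175.6 CPM with IL-4. All 3 IL-4 values were above the PBS values, by as little as 98.4 against 94.9 CPM. Its log2 fold change with IL-4 was 1.26 ± 0.39, with an adjusted p of 0.153 by edgeR's quasi-likelihood test. DESeq2's Wald test, which called 2 members in this comparison, gave S100a10 an adjusted p of 0.031.
S100a6, also called calcyclin, was 82.0, 154.7 and 76.6 CPM in PBS microglia, 134.7, 312.8 and 103.9 CPM with IL-13 and 152.5, 131.4 and 171.3 CPM with IL-4. Its groups overlapped, and its log2 fold changes of 0.55 ± 0.40 with IL-4 and 0.80 ± 0.40 with IL-13 had adjusted p of 0.589 and 0.722 by edgeR's test. S100a11, which binds annexin A1, had a log2 fold change of -0.51 ± 0.32 with IL-4 and -0.08 ± 0.32 with IL-13, and the first had an adjusted p of 0.517 by edgeR's test. S100a1 and S100a13, which binds Fgf1, moved by between -0.05 and 0.28. Over the 8 members the median log2 fold change was 0.20 with IL-4 and 0.39 with IL-13, beside medians of -0.06 and 0.00 over all genes tested. With 1 mouse left out, the median of the members was between 0.10 and 0.40 with IL-4 and between 0.074, without IL-13 mouse 5, and 0.75, without IL-13 mouse 7, with IL-13.

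Markers of other cells and of microglia themselves also differed between these libraries. The 10 microglial markers summed to between 6529 and 11655 CPM in PBS microglia. Their sums were 2949 to 7458 CPM with IL-13 and 2715 to 4634 CPM with IL-4. With IL-4, edgeR's test called 4 of the 10 lower, against 138 of the 15566 genes tested, and DESeq2 called 8 lower. With IL-13, DESeq2 called 2 of them lower. The 10 monocyte and infiltrating macrophage markers summed to between 814 and 1186 CPM with PBS. Their sums were 942 to 1175 CPM with IL-13 and 1105 to 1860 CPM with IL-4. With IL-4, 1 of the 10 was called higher, against 207 of the 15566 genes tested, and DESeq2 called 1 higher and 2 lower. With IL-13, DESeq2 called 1 of these monocyte markers lower and 0 higher. The 7 endothelial markers summed to between 868 and 1877 CPM with PBS. Their sums were 1856 to 2996 CPM with IL-13 and 2118 to 2686 CPM with IL-4. For IL-4, 2 of them were higher and 1 lower by DESeq2. By edgeR's quasi-likelihood test 0 of 7 were called with IL-4, and 5 were at an unadjusted p under 0.05. For IL-13, 1 was higher and 0 lower by DESeq2. The edgeR test called 0 of 7 with IL-13, where 2 were under the same unadjusted level. The 10 fibroblast and pericyte markers summed to between 2570 and 3735 CPM with PBS, to 1892, 8322 and 1328 CPM in IL-13 mice 5, 6 and 7 and to between 254 and 1626 CPM with IL-4. The part of these lists in the S100a4 result was not tested. In such bulk libraries, fewer cells of a type and less RNA per cell cannot be told apart.

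In macrophages, no member was called with IL-4, IL-13 or between them. S100a4 was 274.7, 407.5 and 404.3 CPM in the macrophages of PBS mice, 560.1, 668.2 and 452.2 CPM with IL-13 and 311.5, 532.9 and 538.8 CPM with IL-4. The IL-13 values lay above the PBS values and the IL-4 values overlapped them. The log2 fold change of S100a4 was 0.68 ± 0.26 with IL-13, with an adjusted p of 0.191 by edgeR's quasi-likelihood test, and 0.43 ± 0.26 with IL-4, with an adjusted p of 0.318.
Called were 0 of 8 members with IL-4, against 14% of the 13606 genes tested in macrophages, 0 with IL-13, against 4.19%, and 0 between the cytokines, against 0.25%, all by edgeR's quasi-likelihood test. DESeq2 also called 0 in each. At an unadjusted p under 0.05 there were 0 members with IL-4, 1 with IL-13 and 0 between the cytokines. The median log2 fold change of the members was 0.03 with IL-4 and 0.60 with IL-13, beside 0.02 and 0.00 over all genes. Without IL-13 mouse 6 the median with IL-13 was 0.097, and without any other 1 mouse it was between 0.39 and 0.89. With IL-4 it was between -0.17 and 0.22 when 1 mouse was left out. S100a11 was 160.1, 298.1 and 212.5 CPM with PBS, 141.8, 449.3 and 136.9 CPM with IL-13 and 86.4, 164.9 and 117.3 CPM with IL-4. The IL-4 and PBS ranges of S100a11 overlapped slightly, and its log2 fold change of -0.79 ± 0.46 had an adjusted p of 0.297 by edgeR's test. S100a6 and S100a10 overlapped between PBS and each cytokine, S100a10 with IL-13 only just, at a lowest value of 316.2 CPM against a highest PBS value of 317.3 CPM.

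**Figure D2:**
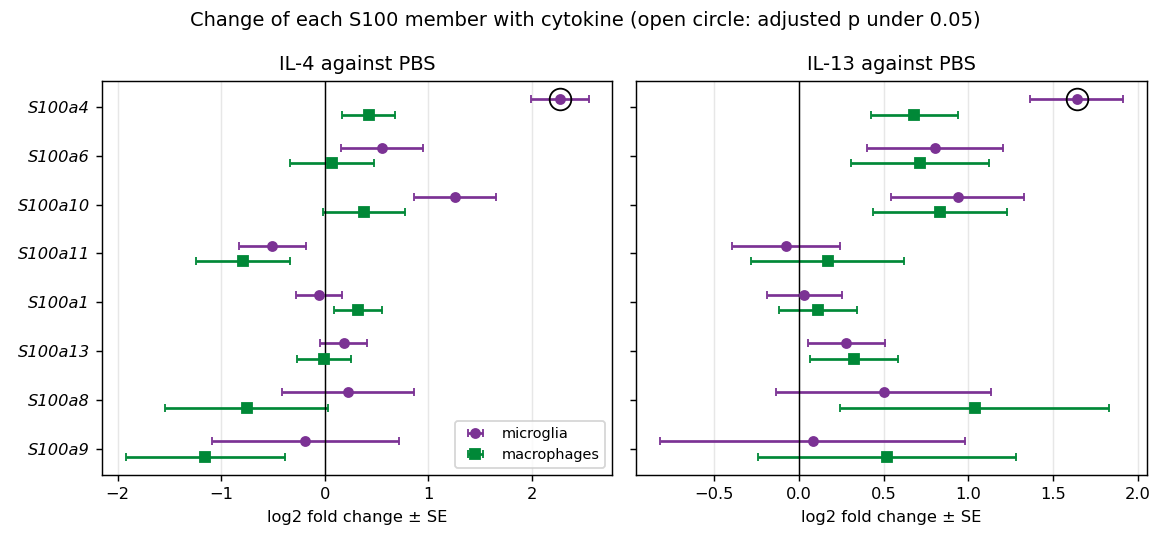
Log2 fold change (± SE) of each member with IL-4 (left) and IL-13 (right) against PBS, in microglia (circles) and macrophages (squares), from edgeR's fit of the 9 libraries of each cell type. Open circles mark adjusted p under 0.05, which S100a4 has in microglia with IL-4 (2.28) and with IL-13 (1.64), and the widest error bars belong to S100a8 and S100a9.

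The response of S100a4 to IL-4 was larger in microglia than in macrophages. The difference between the 2 log2 fold changes was 1.83 ± 0.40, with an adjusted p of 0.0408 by edgeR's quasi-likelihood test on all 18 libraries. S100a4 was 1 of 8 members called, against 0.992% of the 16535 genes tested. The call was lost when any 1 of 5 of the 6 mice was left out, with adjusted p from 0.0374 to 0.182 over all 6 and a difference that stayed between 1.56 and 2.15. For IL-13 against PBS, 0 of 8 members were called, against 0.0242% of genes, and for IL-4 against IL-13, 0 of 8, against 0.139%, by edgeR's quasi-likelihood test and by DESeq2 alike. In each of these, 1 member had an unadjusted p under 0.05, which was S100a4, with differences of 0.96 ± 0.40 and 0.87 ± 0.40 on the log2 scale.

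The second question was how microglia and macrophages of the same cords differed. After PBS, 7 of the 8 members differed. S100a4, S100a6, S100a8, S100a9, S100a10 and S100a11 were higher in macrophages, 6 of 8 members against 16.3% of the 14715 genes tested, and S100a1 was higher in microglia, 1 of 8 against 24.5%. S100a13 was not called, with a log2 fold change of -0.10 ± 0.22 in microglia against macrophages and an adjusted p of 0.754 by edgeR's quasi-likelihood test.
After PBS the macrophage excess of S100a4 was 6.30-fold, with a log2 fold change of microglia against macrophages of -2.65 ± 0.24 and an adjusted p of 6.41e-05 by edgeR's test. It was 3.87-fold for S100a10, with an adjusted p of 0.00121 by the same test, 3.39-fold for S100a6 (0.00302) and 3.00-fold for S100a11 (0.00438). S100a1, a calcium sensor best known from muscle and brain, was 43.5, 34.0 and 31.4 CPM in PBS microglia and 23.6, 20.9 and 26.8 CPM in PBS macrophages. These S100a1 groups did not overlap, and the difference was 1.56-fold with an adjusted p of 0.0221 by edgeR's test. That call was lost without mouse 1 or mouse 2, with adjusted p up to 0.136.

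After IL-13, 4 of 8 members were higher in macrophages (S100a4, S100a8, S100a10 and S100a11), against 9.46% of the 13906 genes tested, and 0 in microglia, against 17.2%. S100a6 missed the threshold with an adjusted p of 0.0523 by edgeR's quasi-likelihood test and passed it with the mouse as a block, at 0.000977. After IL-4, 4 of 8 were higher in macrophages (S100a6, S100a8, S100a9 and S100a11), against 9.97% of the 13576 genes tested, and 0 in microglia, against 13.4%. DESeq2 also called 0 members higher in microglia after either cytokine, and edgeR's quasi-likelihood test gave 0 at an unadjusted p under 0.05. With the mouse as a block S100a10 was also called after IL-4, with an adjusted p of 0.0113 by edgeR's test. The member counts changed when 1 mouse was left out, and so did the counts over all genes. After IL-13 the member count ran from 1 to 4. It was 1 without mouse 7, where the genes higher in macrophages fell from 1315 to 265. After IL-4 the member count ran from 0 to 6. It was 6 without mouse 8, where these genes fell from 1353 to 788. Without mouse 9 it was 1, where these genes fell to 1088, and without mouse 10 it was 0, where they fell to 610. With any 1 mouse left out, edgeR's test had only 2 mice a group.
The macrophage excess of S100a4 was 3.13-fold after IL-13, with an adjusted p of 0.00234 by edgeR's quasi-likelihood test, and 1.71-fold after IL-4, with an adjusted p of 0.0948. Within the mice, the ratio of macrophage to microglia CPM of S100a4 was 7.01, 6.33 and 6.14 with PBS, 2.56, 4.26 and 2.98 with IL-13, and 0.976, 2.78 and 1.78 with IL-4. Every PBS mouse had a higher ratio than every cytokine-treated mouse. Macrophages had the higher CPM in 9 of 9 mice for S100a6, S100a8, S100a9, S100a10 and S100a11, in 8 of 9 for S100a4, in 4 of 9 for S100a13 and in 0 of 9 for S100a1. The median ratio over the 9 mice was 3.34 for S100a10, 3.09 for S100a6, 2.74 for S100a11 and 0.737 for S100a1.

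**Figure D3:**
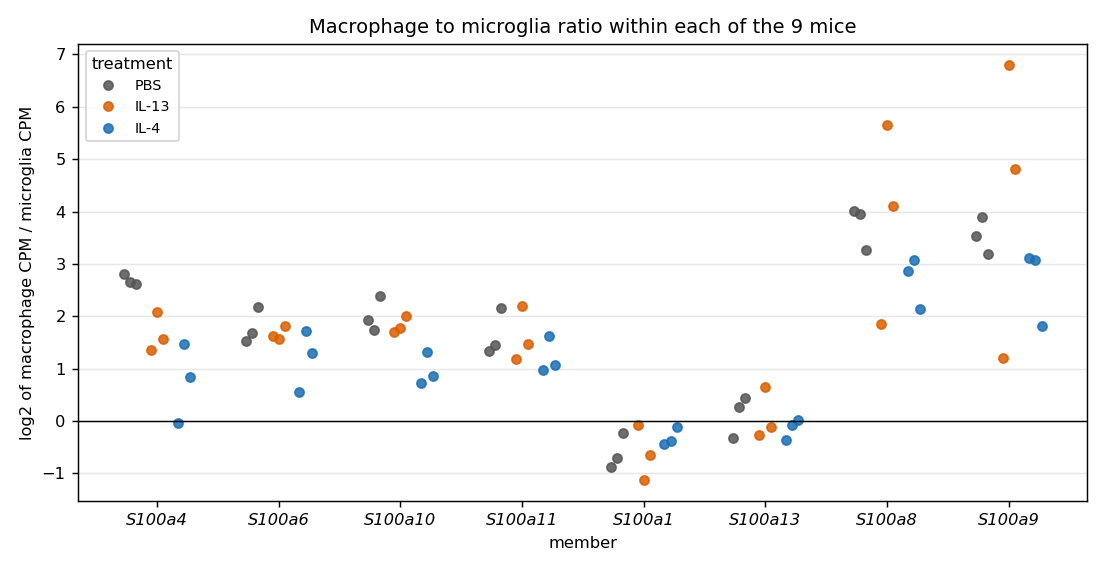
Log2 of the macrophage CPM over the microglia CPM of the same mouse, with 1 point per mouse and colours for treatment; points above 0 are higher in macrophages. S100a8 and S100a9 have the widest spread, S100a1 lies below 0 in 9 of 9 mice and S100a4 has its ratios after PBS, 6.14 to 7.01, above all others.

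The pair S100a8 and S100a9 was set apart. S100a8 was 213.0, 473.4 and 214.5 CPM in PBS macrophages, 195.2, 1403 and 186.3 CPM with IL-13 and 65.4, 302.0 and 139.6 CPM with IL-4. S100a9 was 211.8, 417.4 and 188.8 CPM with PBS, 133.6, 882.2 and 114.1 CPM with IL-13 and 47.5, 199.1 and 101.5 CPM with IL-4. Both genes were highest in IL-13 mouse 6, followed by PBS mouse 2, and lowest in IL-4 mouse 8. The log2 fold change with IL-13 was 1.04 ± 0.79 for S100a8 and 0.52 ± 0.76 for S100a9, with adjusted p of 0.561 and 0.792 by edgeR's quasi-likelihood test. Without mouse 6 these became -0.61 and -1.09. With IL-4 they were -0.75 ± 0.79 and -1.16 ± 0.77, with adjusted p of 0.592 and 0.372 by edgeR's test.

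In microglia, S100a8 was 13.2, 30.7 and 22.3 CPM with PBS, 54.3, 28.0 and 10.8 CPM with IL-13 and 9.0, 35.8 and 31.6 CPM with IL-4. S100a9 was 18.2, 28.1 and 20.7 CPM, 57.8, 7.9 and 4.1 CPM and 5.5, 23.7 and 29.0 CPM in the same order. The groups of both genes overlapped, and the lowest adjusted p of their cytokine changes in microglia was 0.939 by edgeR's quasi-likelihood test.
After each treatment, the largest folds between the cell types among the 8 members were those of this pair. After PBS, S100a8 was 13.4-fold and S100a9 12.0-fold higher in macrophages, with adjusted p of 0.000173 and 6.88e-05 by edgeR's quasi-likelihood test. After IL-4 they were 6.68-fold and 6.01-fold higher, with adjusted p of 0.0228 and 0.0334. After IL-13, S100a8 was 18.8-fold higher, with an adjusted p of 0.0181, and S100a9 15.8-fold, with an adjusted p of 0.0529 by edgeR's test. Without mouse 6 the log2 fold change of microglia against macrophages after IL-13 was -2.52 for S100a8 and -1.97 for S100a9, with adjusted p of 0.0519 and 0.245 by edgeR's test. In IL-13 mouse 5, whose microglia held 54.3 and 57.8 CPM, the macrophage to microglia ratio was 3.60 for S100a8 and 2.31 for S100a9, against 50.1 and 112 in mouse 6.

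A list of 18 neutrophil markers was set beside the pair, since calprotectin is above all a neutrophil product and the gate leaves out F4/80- granulocytes. In macrophages, these markers summed to between 995 and 1269 CPM with PBS, 284 and 764 CPM with IL-4, and 468, 1891 and 530 CPM in IL-13 mice 5, 6 and 7. The macrophage library with the highest sum of the pair, 2286 CPM in IL-13 mouse 6, also had the highest neutrophil sum, and that with the lowest, 113 CPM in IL-4 mouse 8, had the lowest. In between, the order of the libraries differed. With PBS the pair summed to 403, 425 and 891 CPM, beside neutrophil sums of at least 995 CPM. With IL-4 the pair reached 501 CPM, where the neutrophil sum was at most 764 CPM. With IL-4, 5 of the 18 listed were called lower in macrophages and 0 higher. Over the 13606 genes tested, 979 were called lower and 921 higher. With IL-13, 0 of 18 were called by edgeR's quasi-likelihood test, against 4.19% of genes. DESeq2 called 2 with IL-13, and 3 had an unadjusted p under 0.05 by edgeR's test. In microglia the sum was between 84.9 and 270.0 CPM. Of the 13 tested there, 0 were called with IL-4 or IL-13 by edgeR's test, against 2.22% and 0.366% of genes. DESeq2 called 0 with IL-4 and 1 with IL-13.
Of the defining neutrophil genes, Ly6g was between 0.4 and 5.9 CPM in macrophages, with its highest value in IL-13 mouse 6. Mpo was at most 7.4 CPM and Elane at most 3.0 CPM in macrophages, both in PBS mouse 1, and all 3 were at most 1.5 CPM in microglia. Lcn2, a protein of neutrophil granules, was 348.3 CPM in the macrophages of IL-13 mouse 6 and at most 101.1 CPM in any other macrophage library. The part of neutrophil RNA in the level of the pair was not tested. S100a4, S100a6, S100a10, S100a11 and S100a13 were also highest of all macrophage libraries in IL-13 mouse 6, with 668.2, 930.8, 651.7, 449.3 and 45.6 CPM, so that S100a1 was the exception among the 8 members.

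**Figure D4:**
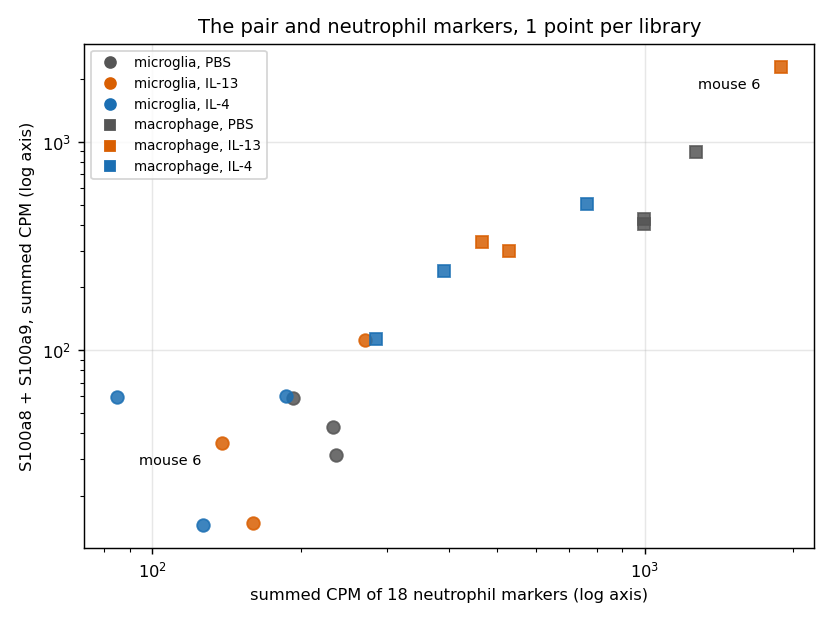
Summed CPM of S100a8 and S100a9 (y axis) against the summed CPM of 18 neutrophil markers (x axis), both on log axes, with 1 point per library. Macrophage libraries run from 113 CPM of the pair in IL-4 mouse 8 to 2286 CPM in IL-13 mouse 6, and microglia libraries lie at 112 CPM or below.

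Genes outside the family were ranked by how closely their log2 CPM followed that of the members, over the 9 libraries of a cell type. These libraries share their treatment groups, so the correlations describe a common pattern and carry no test. In macrophages, the 5 genes closest to the mean of S100a8 and S100a9 were Pam16, Retnlg, Lcn2, Cfl1 and Vapa, with Pearson r from 0.979 to 0.989. Retnlg and Lcn2 are on the neutrophil list. In microglia they were Pcdh9, Akap8l, Mrpl16, Tube1 and Ccdc34, with r from 0.932 to 0.978, and none of these was on the neutrophil list. Closest to S100a4 in microglia were Atp5a1, Cbr2 and Fam20c, with r from 0.975 to 0.987. Without the 2 libraries farthest from the median, r was between 0.963 and 0.980 for these 3, between 0.910 and 0.980 for the 5 genes closest to the pair in macrophages and between 0.798 and 0.945 for the 5 in microglia.

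Of 10 other S100 genes listed, 9 were in the table and 2 passed the filter. S100a16 had between 1184 and 3838 counts in microglia libraries and between 2 and 46 in macrophage libraries. Its log2 fold change of microglia against macrophages was 5.60 ± 0.26 after PBS, with an adjusted p of 3.18e-06 by edgeR's quasi-likelihood test. In the same comparison DESeq2 called 10 microglial, 10 fibroblast and pericyte and 7 endothelial markers higher in microglia libraries, all those listed. Over all 23398 genes that DESeq2 tested, 4257 were higher there. The part of the cells of each list in this S100a16 difference was not tested. In macrophages S100a16 had 28, 44 and 46 counts with PBS, 13, 32 and 11 with IL-13 and 2, 3 and 11 with IL-4, and was called lower with IL-4, with a log2 fold change of -3.05 ± 0.73 and an adjusted p of 0.0204 by edgeR's test. All 10 microglial markers were called lower with IL-4 in the same macrophage libraries, against 979 of the 13606 genes tested. The part of these markers in the S100a16 result was not tested. S100b, a known product of glia, had between 236 and 699 counts in microglia libraries and between 38 and 103 in macrophage libraries, and was higher in microglia after each treatment, with log2 fold changes from 2.24 to 3.28 and adjusted p of at most 0.00808 by edgeR's test. Of the astrocyte markers tested, 8 of 9 were also higher in microglia after PBS, 6 of 9 after IL-13 and 4 of 8 after IL-4, and of the oligodendrocyte markers 5 of 7, 4 of 7 and 4 of 6. The shares of all genes tested that were higher in microglia were 24.5%, 17.2% and 13.4% in the same order. The astrocyte markers summed to between 103 and 340 CPM in microglia and between 25.0 and 495 CPM in macrophages, and the oligodendrocyte markers to between 161 and 389 CPM and between 125 and 225 CPM. The part of such cells in the S100b result was not tested. S100b was not called with either cytokine in either cell type. S100a2, S100g and S100z had 0 counts, and S100a3, S100a5, S100a7a and S100a14 had at most 44 counts in any library.

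The partners and receptors of S100 proteins were read from a list of 28 genes. In microglia 27 were tested and 0 were called with IL-4 or with IL-13 by edgeR's quasi-likelihood test, against 2.22% and 0.366% of all genes tested, while 8 and 2 had an unadjusted p under 0.05 and DESeq2 called 3 and 0. In macrophages 26 were tested, of which 7 were called with IL-4, 4 higher and 3 lower, against 14% of all genes tested, and 4 with IL-13, 2 higher and 2 lower, against 4.19%. Called higher with IL-4 were Anxa6, Tlr4, Anxa2 and Anxa1, with log2 fold changes of 0.71, 0.80, 0.80 and 0.54, and called lower were Plau (-1.03), Il1a (-0.95) and Plat (-4.31). With IL-13, Anxa6 (0.62) and Plgrkt (0.57) were higher and Plau (-2.02) and Il1a (-1.34) lower.
Anxa2, which holds S100a10 at the membrane, was 411.2, 583.8 and 425.5 CPM in PBS microglia and 716.7, 885.0 and 799.7 CPM with IL-4, ranges that did not overlap. Its log2 fold change there was 0.77 ± 0.17, with an adjusted p of 0.0589 by edgeR's quasi-likelihood test, and in macrophages it was 0.80 ± 0.21 with an adjusted p of 0.0274. Myh9, the myosin heavy chain that S100a4 binds, had log2 fold changes between -0.46 and -0.25 with the cytokines and was not called. Tlr4, a receptor of the pair, was between 103.0 and 217.9 CPM in macrophages and between 29.2 and 82.7 CPM in microglia. Ager, which encodes the receptor RAGE, was at most 1.1 CPM in any library and failed the filter in macrophages. After PBS, 14 of the 26 partners tested were higher in macrophages, against 16.3% of all genes tested, and 7 in microglia, against 24.5%, among them Tlr4, Anxa1, Anxa2 and Myh9 in macrophages.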

How the data were processed

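RNA was measured by SMART-seq2, which is unstranded and has no molecular identifiers, in 18 libraries from 9 mice. The authors mapped reads with STAR 2.5.3a to GRCm38 and deposited RSEM 1.3.0 expected counts per gene, rounded to whole numbers and not normalized. RSEM shares out reads that fit several genes. Groups came from the labels. Each comparison used edgeR 4.0.16 (quasi-likelihood test, TMM scaling, edgeR's low-count filter, Benjamini-Hochberg adjustment over all genes tested, threshold 0.05). Cytokines were compared within the 9 libraries of a cell type, cell types within the 6 libraries of a treatment, and the cell type difference of a cytokine change over all 18. Standard errors came from the F statistic. P-values rest on 3 mice a group. DESeq2 1.42.0, its size factors, other filters, other sample sets, the mouse as a block and leaving out each mouse were the alternatives. Microglia and macrophages of a number are from 1 mouse per the labels, and their deviations from the group means correlated by 0.0632 to 0.255. Exon lengths came from GENCODE M21 and promoters from RefSeq. Scripts were tested on simulated data. Named were all members, 2 other S100 genes that passed the filter, partners called with a cytokine (up to 10) and Anxa1, Anxa2, Myh9, Ager and Tlr4, defining markers, and the genes most alike (5 for the pair, 3 for S100a4). Members and lists were chosen with earlier results of these data known. The authors state that the input RNA varied between samples, and how that bears on the levels was not tested.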

Additional observations from a re-analysis of the deposited data

Results flagged for a closer look

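The change of S100a4 with IL-4 against PBS differed between microglia and macrophages. The difference of the log2 fold changes was 1.83 ± 0.40, with an adjusted p of 0.0408 by edgeR's quasi-likelihood test on all 18 libraries, and it was above 0 under every alternative run. Without PBS mouse 1, 2 or 3 or IL-4 mouse 8 or 10, the adjusted p was above the threshold and reached 0.182. In microglia 3 of 3 IL-4 mice had more S100a4 than every PBS mouse, and in macrophages 2 of 3 did. Groups of 3 mice are too small for a test of single outlying samples.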

How the results depend on the processing

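The change of S100a4 with IL-4 in microglia was called under every alternative run. With IL-13 it was 0 of 8 members without any 1 of the 6 mice (lowest and highest 0) and 0 with only the 6 libraries compared, where S100a4 had an adjusted p of 0.0727 by edgeR's quasi-likelihood test. DESeq2 called 2 members with IL-4 in microglia. Leaving out a mouse gave 1 to 4 members after IL-13 and 0 to 6 after IL-4 between cell types, and 0 to 1 for the cell type difference in IL-4 against PBS. With the mouse as a replicate block, edgeR gave S100a4 a difference of 1.85 with an adjusted p of 0.0349, 5 members after IL-13 and 5 after IL-4, where S100a6 and S100a10 were added, and it changed no other call. With all 18 libraries in a single model S100a1 after PBS (adjusted p = 0.0511) and S100a9 after IL-4 (adjusted p = 0.0549 by edgeR) were lost, and S100a4 after IL-4 was added (0.0454). S100a6 and S100a9 after IL-13 were called there and under both other filters, and S100a6 also by DESeq2. Of the member folds under a setting that kept all mice, 1 changed sign, S100a13 for the cell type difference in IL-13 against PBS, to 0.0096 with all genes of any count. Leaving out 1 mouse turned the sign of some folds that were not called, here with the lowest and highest log2 fold change. For IL-4 against PBS in microglia, S100a1 ran from -0.15 to 0.100, S100a8 from -0.11 to 0.63 and S100a9 from -0.59 to 0.25. For IL-13 against PBS in microglia, S100a1 ran from -0.14 to 0.19, S100a11 from -0.37 to 0.31, S100a8 from -0.21 to 0.91 and S100a9 from -1.93 to 0.58. For IL-4 against IL-13 in microglia, S100a1 ran from -0.21 to 0.084, S100a13 from -0.22 to 0.090, S100a6 from -0.53 to 0.35, S100a8 from -0.69 to 0.44 and S100a9 from -0.77 to 1.74. For IL-4 against PBS in macrophages, S100a13 ran from -0.16 to 0.18 and S100a6 from -0.17 to 0.40. For IL-13 against PBS in macrophages, S100a1 ran from -0.18 to 0.26, S100a11 from -0.63 to 0.45, S100a8 from -0.61 to 1.55 and S100a9 from -1.09 to 0.99. For microglia against macrophages after PBS, S100a13 ran from -0.36 to 0.019. For microglia against macrophages after IL-13, S100a13 ran from -0.34 to 0.23. For the cell type difference in IL-13 against PBS, S100a1 ran from -0.34 to 0.24, S100a10 from -0.072 to 0.27, S100a11 from -0.46 to 0.27, S100a13 from -0.28 to 0.31, S100a6 from -0.063 to 0.19, S100a8 from -1.67 to 1.20 and S100a9 from -2.85 to 1.59. For the cell type difference in IL-4 against IL-13, S100a11 ran from -0.016 to 0.75, S100a13 from -0.14 to 0.44, S100a8 from -0.25 to 2.62 and S100a9 from -0.65 to 3.79. With the longest transcript as the length, the order of the members changed in places, and S100a8 came before S100a4 in macrophages after IL-13. With 3 mice a group, a fold below the spread between mice could not be detected, whatever the depth. The causes were not tested.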
